A study of Drosophila melanogaster with 2 samples.

Results

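The genes described here are named for the proteins of the large subunit of the cytoplasmic ribosome in Drosophila melanogaster, and most encode them. They were chosen by name, as every protein-coding gene of the Ensembl BDGP6 annotation whose symbol starts with RpL. The rule gave 54 genes of 13945 protein-coding genes on 6 chromosomes (2L, 2R, 3L, 3R, 4 and X), and no measured value entered it. The 54 include RpL7-like, RpL24-like and RpLP0-like, 3 genes that, going by their yeast counterparts, act in assembly. They are counted in all totals below. Chromatin came from whole embryos of mixed sex aged 0 to 24 hours, from a transgenic line that stably expresses NC2alpha with eGFP fused to its C terminus. An anti-GFP antibody precipitated the chromatin in 2 biological replicates, both of this 1 group. There was no second stage, genotype or treatment, and no library from untagged embryos was used here, so each statement below is about where peaks lay and how strong they were, not about a change.

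Large-subunit proteins join ribosomal RNA in the nucleolus to build the part of the ribosome that forms peptide bonds. In Drosophila, loss of a single copy of many of these genes gives the Minute phenotype of slow development and thin bristles. Ribosomal protein genes of flies often start transcription in a TCT motif, a stretch of pyrimidines in the place of the usual Initiator. NC2alpha and NC2beta form negative cofactor 2, a dimer that binds TATA-binding protein on DNA and keeps TFIIA and TFIIB away from it. In assays with Drosophila extracts it repressed promoters with a TATA box and activated those with a downstream promoter element. Work in Drosophila has linked TCT promoters to TBP-related factor 2 in place of TATA-binding protein.

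The letters around the start site differ among these genes, and the following windows show the kinds of promoter that the values below refer to. Each runs 5′ to 3′ on the gene's strand from 20 bases before to 20 bases after the representative transcription start site (TSS), in the RefSeq sequence of Release 6 of the genome (dm6). Capitals mark a TCT match, defined as CTTT with 2 pyrimidines on each side and its C within 10 bp of the TSS. RpL14 (chr3L:8600986-8601026, plus strand), RpL3 (chr3R:11221874-11221914, plus strand), RpL22 (chrX:765110-765150, minus strand) and RpL8 (chr3L:2587436-2587476, plus strand) held the motif and had a peak. RpL17 (chrX:6744218-6744258, minus strand), RpL34a (chr3R:26059247-26059287, minus strand) and RpL26 (chr3L:18899084-18899124, plus strand) had a peak and no TCT match at any annotated TSS. At RpL26 a CTTT with 2 pyrimidines on each side has its C just beyond the 10 bp limit. RpL6 (chr3R:31596184-31596224, minus strand) and RpL40 (chr2L:4227679-4227719, plus strand) held the motif and had no peak in the filtered list. RpL10Aa (chr3R:15037346-15037386, plus strand) had neither.
RpL14: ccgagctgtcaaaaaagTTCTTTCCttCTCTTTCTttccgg
RpL3: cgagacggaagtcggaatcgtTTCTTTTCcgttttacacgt
RpL22: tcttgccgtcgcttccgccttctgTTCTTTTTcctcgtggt
RpL8: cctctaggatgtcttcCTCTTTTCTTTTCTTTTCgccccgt
RpL17: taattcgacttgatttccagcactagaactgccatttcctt
RpL34a: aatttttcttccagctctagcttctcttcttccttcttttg
RpL26: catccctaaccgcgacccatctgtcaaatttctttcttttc
RpL6: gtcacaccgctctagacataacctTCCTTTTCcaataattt
RpL40: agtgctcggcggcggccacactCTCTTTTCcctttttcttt
RpL10Aa: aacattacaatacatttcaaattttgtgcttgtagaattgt

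Most RpL genes had an NC2alpha peak of the authors' optimal list at a TSS. A gene was counted as having a peak where a peak summit lay within 500 bp of any of its annotated TSSs, in that list of 2174 peaks, which the authors derived with a reproducibility step. Its peaks were exactly the 2174 strongest of the pooled list by signal, so being in it means a high pooled signal, and a member of it can be weak in 1 replicate. By this count 35 of 54 RpL genes had a peak, a share of 64.8% (exact Clopper-Pearson 95% interval 50.6% to 77.3%), against 10.5% of all protein-coding genes. The interval covers counting error over genes only. The small-subunit genes (RpS) had a peak in 18 of 38 cases (47.4%, 31.0% to 64.2%), and the RpL and RpS intervals overlap. Nuclear genes for mitochondrial ribosomal proteins (mRpL and mRpS) had one in 13 of 73 cases (17.8%), and translation factor genes (eIF and eEF) in 10 of 52 (19.2%). The pooled list before the filter held 30000 peaks and reached 48 of 54 RpL genes (88.9%), against 51.3% of all protein-coding genes. No test was run on these shares.

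**Figure D1:**
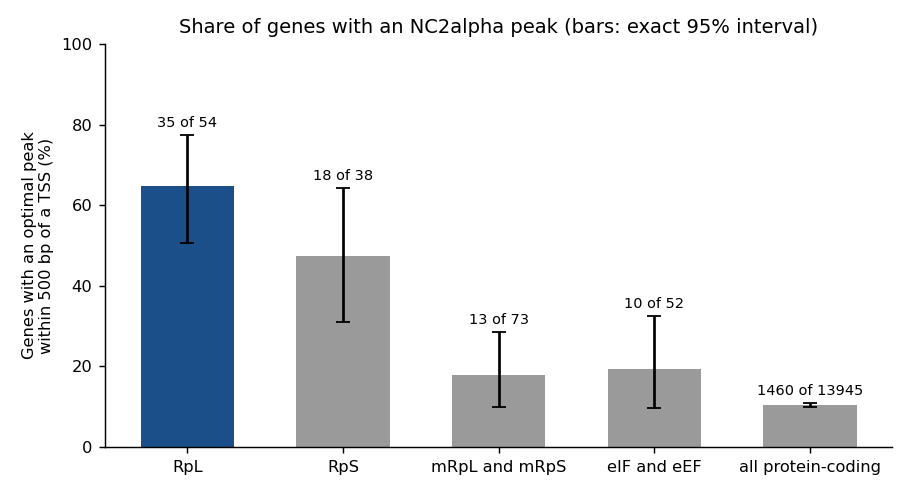
Share of genes with an optimal NC2alpha peak summit within 500 bp of a TSS (y axis, percent) for RpL genes and 4 other groups of protein-coding genes (x axis). Error bars are exact 95% binomial intervals and labels give the counts. RpL stood at 64.8%, RpS at 47.4%, and all protein-coding genes at 10.5%.

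The RpL peaks lay mostly in the stronger part of the list. Signal is the authors' value per peak, relative to a control alignment. The sources used here do not give its scale, so it serves to rank peaks within a list. The 35 genes had 35 distinct strongest peaks with a median signal of 176.6 (quartiles 125.3 and 198.3, range 89.6 to 381), against 123.2 (quartiles 96.5 and 177.7) over all protein-coding genes with a peak. RpS genes with a peak had a median of 131.7 and mitochondrial ribosomal protein genes of 118.5. The 10 translation factor genes (eIF and eEF) with a peak had a median of 153.3 (quartiles 123.6 and 196.1). Of the 35 RpL peaks, with the optimal list cut into 4 equal parts by signal, 18 lay in the strongest part, 10 and 4 in the next parts and 3 in the weakest. The best of them ranked 71 of 2174, and signal reached 1230.2 at the top of the list. Whole embryos mix all cell types and a day of development, so strong binding in few cells and weak binding in many cannot be told apart.

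The 10 strongest members came from several positions in the subunit. RpL7, an RNA-binding protein of the subunit, had the strongest peak (chr2L:10200919-10201136), with signals of 201.9 in replicate 1 and 179.1 in replicate 2 and 381 in the pooled list, where it ranked 71. Its summit lay in the 5′ UTR, 21 bp downstream of the TSS and 51 bp upstream of a TSS of Ripalpha, the neighbouring gene on the other strand. RpL14 (chr3L:8600900-8601063) had 203.7 in replicate 1 and 128.5 in replicate 2, with a pooled signal of 341. Its summit lay 29 bp upstream of the TSS and 98 bp upstream of that of Nelf-E, which encodes a subunit of the negative elongation factor. These 2 members stood apart from the rest, since the next had a pooled signal of 267.

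That next member was RpL23A, a protein at the exit of the peptide tunnel where the signal recognition particle docks. Its peak (chr3L:1668523-1668926) had signals of 153.8 and 115.8 in replicates 1 and 2 and a summit 71 bp upstream of the TSS, with no other gene's TSS within 500 bp. RpL30 (chr2L:19009066-19009469) had 159.4 in replicate 1, 89.5 in replicate 2 and 252 pooled, with its summit 31 bp upstream. RpL41, a very short peptide at the interface with the small subunit, had 154.4 in replicate 1, 99.6 in replicate 2 and 250.4 pooled (chr2R:24903783-24904186). The RpL41 summit lay 50 bp upstream of its TSS, inside an annotated intron and 132 bp upstream of a TSS of the sodium channel gene NaCP60E. All of these members were higher in replicate 1.

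RpLP0, the base of the stalk that recruits elongation factors, had 136.2 in replicate 1, 101.6 in replicate 2 and 243 pooled (chr3L:22075884-22076287). Its summit lay 6 bp upstream of the nearer of its 2 TSSs. RpL3, which reaches towards the peptidyl transferase centre, had 168.2 in replicate 1, 47.9 in replicate 2 and 222 pooled (chr3R:11221789-11221953), with its summit 5 bp upstream. The replicates of RpL3 differ more than those of any other member of these 10. RpL22, known in vertebrates to bind other RNAs besides ribosomal RNA, had 135.5 in replicate 1, 69.0 in replicate 2 and 212 pooled (chrX:765141-765263).

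The last members of these 10 were close together. RpL28 (chr3L:3222927-3223043) had 114.4 in replicate 1, 84.9 in replicate 2 and 198.4 pooled, with its summit 56 bp upstream. RpL24, which forms a bridge to the small subunit, had 122.1 in replicate 1, 74.4 in replicate 2 and 198.2 pooled (chr2L:13394938-13395341), with its summit 9 bp upstream. RpL34b, the next member, had 198.2 as well, so the order among these 3 has no meaning at the spread seen between replicates.

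**Figure D2:**
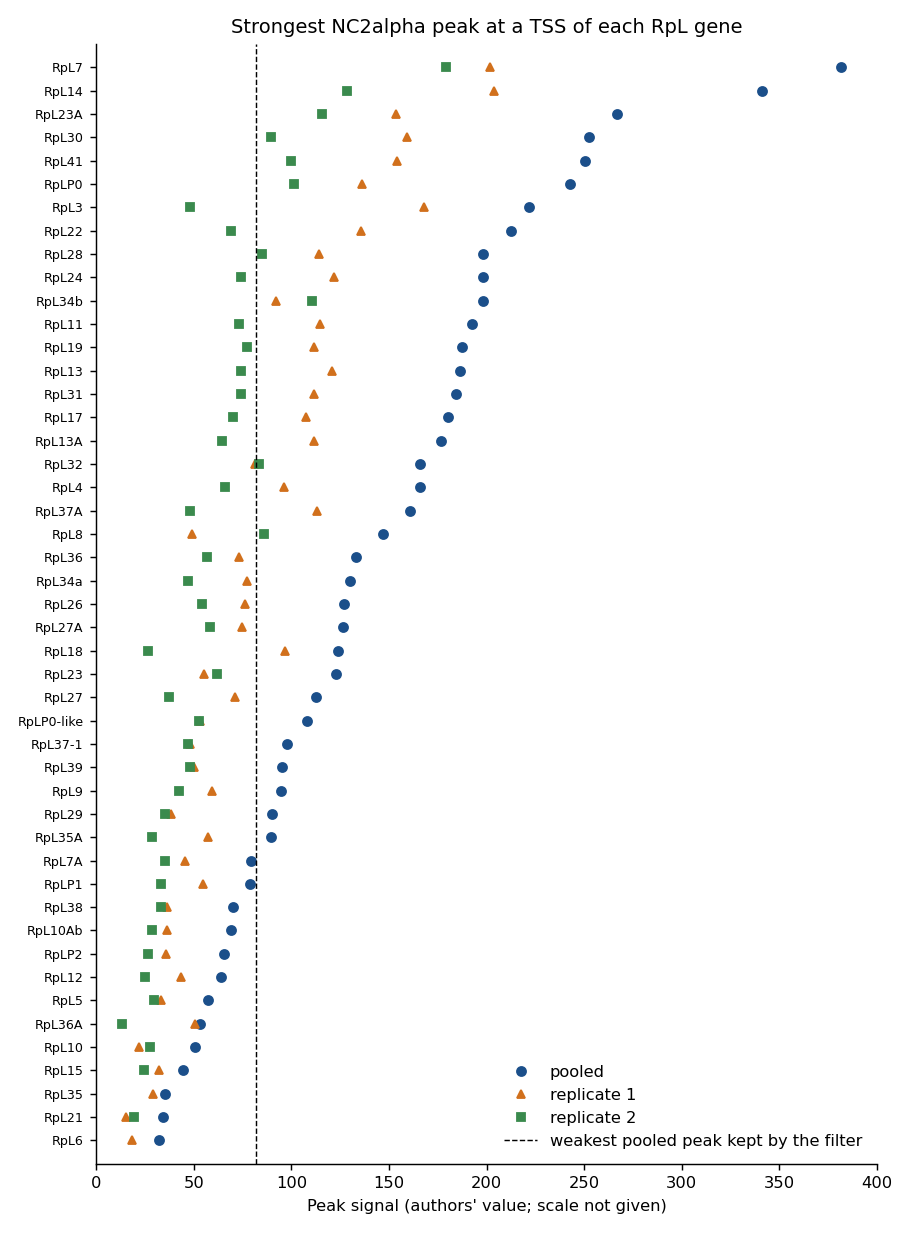
Signal (x axis, the authors' value) of the strongest peak at a TSS of 47 RpL genes with one in the pooled list (rows, sorted by pooled signal), with the value of the overlapping peak in replicates 1 and 2. Circles are the pooled list, triangles replicate 1 and squares replicate 2. The dashed line is the weakest peak of the optimal list, at 81.95, and 34 of the genes shown lie to its right.

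The members were also grouped by their place in the ribosome, a grouping made after the values had been seen. The groups are small and partial, and their counts read against the 64.8% of all RpL genes and the 10.5% of all protein-coding genes that had an optimal peak. Of 8 proteins of the peptide tunnel and its exit (RpL4, RpL17, RpL19, RpL23A, RpL26, RpL31, RpL35 and RpL39), 7 had an optimal peak. RpL19 had a pooled signal of 187, RpL31 of 184, RpL17 of 180.3, RpL4 of 166 and RpL26 of 127. RpL39, a small protein of the tunnel wall, was weaker at 95.3. RpL35, a docking site at the tunnel exit, was the exception, with 35.1 in the pooled list only. Of 3 proteins near the peptidyl transferase centre, RpL3 and RpL8 (146.9) had an optimal peak, and RpL10, a late-joining protein, had 50.5 in the pooled list only.

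The stalk proteins divided among themselves. RpLP0 had the peak described above, while the acidic proteins RpLP1 and RpLP2 that attach to it had none in the optimal list. RpLP1 had 54.9 in replicate 1, 33.1 in replicate 2 and 78.7 pooled, just under the weakest optimal peak. RpLP2 had 35.8 in replicate 1, 26.4 in replicate 2 and 65.6 pooled. RpL12, at the stalk base, had 43.4 in replicate 1, 25.3 in replicate 2 and 64.2 pooled. In both replicates RpLP0 lay above RpLP1, RpLP2 and RpL12. RpL24 and RpL41, which are among the proteins that contact the small subunit, had a peak. Of the 2 proteins that travel with 5S ribosomal RNA, RpL11 had a pooled signal of 193 and RpL5 of 57.5.

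Among the remaining members with an optimal peak, pooled signal was 186 at RpL13, 177 at RpL13A and 165.9 at RpL32, whose transcript (also called rp49) is widely used as a reference in fly RNA assays. It was 161 at RpL37A, 133 at RpL36, 127 at RpL27A, 124 at RpL18, 123 at RpL23 and 113 at RpL27. The 5 weakest with an optimal peak lay close to the filter. RpL37-1 had 47.9 in replicate 1, 47.2 in replicate 2 and 97.8 pooled (chrX:15139250-15139653), and RpL39 had 50.4, 48.1 and 95.3 in the same order (chr2R:24062217-24062620). RpL9 had 59.2 in replicate 1, 42.4 in replicate 2 and 94.8 pooled (chr2L:11003960-11004363). RpL29 had 38.2, 35.5 and 89.9 (chr2R:21293573-21293976), and RpL35A had 57.5, 28.8 and 89.6 (chr3R:5466907-5467310). Pooled values of these 5 spanned only 89.6 to 97.8, less than the gap between replicates at RpL9 or RpL35A.

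The other 19 members had no optimal peak, and 13 of them had a weaker peak at a TSS in the pooled list. Their pooled signal had a median of 57.5 (range 32.2 to 79.2), and over the 48 members with any pooled peak it was 128.5, against 46.6 over the 7152 protein-coding genes with one. RpL7A was nearest to the filter, with 45.5 in replicate 1, 35.1 in replicate 2 and 79.2 pooled, against 81.95 for the weakest optimal peak. RpL38 had 70.2 pooled, RpL10Ab 69.2, RpL15 44.4 and RpL21 34.5. RpL36A had 50.6 in replicate 1 and 13.5 in replicate 2, and 53.0 pooled. RpL35 had 28.9 in replicate 1 and 35.1 pooled, with no overlapping peak in replicate 2. RpL6 had 18.4 in replicate 1 and 32.2 pooled, also with no overlapping peak in replicate 2. Optimal peaks were not just beyond the 500 bp limit in any of these cases, since the nearest optimal summit of the 19 members lay at a median of 25692 bp from a TSS (range 1965 to 4388359 bp). The nearest was at RpL12, and that peak is the one at the TSS of its neighbour RpL39. The farthest was at RpL15, followed by RpL38 at 1501275 bp and RpL5 at 669194 bp.

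A further 6 members had no pooled peak summit within 500 bp of a TSS: RpL7-like, RpL10Aa, RpL22-like, RpL24-like, RpL37-2 and RpL40. All except RpL40, which encodes ubiquitin fused to a ribosomal protein, belong to a pair of related genes. RpL24-like and RpL7-like lay just outside the distance rule, with pooled summits of 49.7 and 48.7 at 536 bp and 534 bp upstream of the nearest TSS. Among the strongest pooled peaks of the 48 members inside the rule, the largest distance was 266 bp, at RpL15. The nearest pooled summit lay 1135 bp from RpL22-like, 1277 bp from RpL40, 4533 bp from RpL37-2 and 44263 bp from RpL10Aa. Of these 6, RpL7-like had a peak of 40.8 at -320 bp in the replicate 1 list only, and RpL37-2 a peak of 13.7 at -449 bp in the replicate 2 list only.

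The members include 7 pairs of related genes. In each pair with a gene named -like, the gene without that suffix had the stronger peak. The symbols of the RpL10A, RpL34 and RpL37 pairs do not mark 1 gene as the canonical one. RpL7 (381), RpL22 (212), RpL24 (198.2) and RpL37-1 (97.8) had an optimal peak where RpL7-like, RpL22-like, RpL24-like and RpL37-2 had no pooled peak at a TSS. RpL22-like encodes a paralog found mainly in the germline, and RpL7-like and RpL24-like are named after ribosomal proteins but, going by their yeast counterparts, act in assembly. RpL10Ab had 36.3 in replicate 1, 28.4 in replicate 2 and 69.2 pooled, and RpL10Aa had no pooled peak. Both members had an optimal peak in the other 2 pairs. RpL34b had 92.3 in replicate 1, 110.6 in replicate 2 and 198.2 pooled, and RpL34a had 77.3, 47.2 and 130.1, so that RpL34b was higher in each replicate. RpLP0 had 243 pooled and RpLP0-like, whose yeast counterpart is an assembly factor, had 108, with 53.5 in replicate 1 and 52.6 in replicate 2. Paralogs with near-identical stretches can share reads, and the sources used here do not say how such reads were placed.

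Most members had a higher signal in replicate 1. At the 35 members with an optimal peak, signal had a median of 107.5 in replicate 1 (range 38.2 to 203.7) and 69.0 in replicate 2 (range 26.5 to 179.1). The ratio of replicate 1 to replicate 2 had a median of 1.44 and was above 1 in 31 members. The exceptions were RpL34b, RpL32, RpL8 and RpL23. Over 2158 optimal peaks with both values the median ratio was 1.31, and 77.8% were higher in replicate 1, so the members share a shift seen across the list. Values were more than 2-fold apart in 3 members: RpL18 (96.9 in replicate 1 and 26.5 in replicate 2), RpL3 (168.2 and 47.9) and RpL37A (113.1 and 48.2). That is 8.57% of the members with a peak, against 18.1% of all optimal peaks.

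When each replicate was cut to its strongest 2174 peaks, as many as the optimal list holds, 33 of 54 members had a peak in replicate 1, against 10.2% of all protein-coding genes. The count was also 33 in replicate 2, against 10.7% of all protein-coding genes. In both replicates at once it was 29, and all 29 had an optimal peak. Shares over all protein-coding genes for both replicates at once, or for only 1, were not counted. The share in both cannot exceed the 10.2% of replicate 1. A peak among the strongest of a single replicate was found at 8 members (RpL8, RpL18, RpL29, RpL35A, RpL36A, RpL37-1, RpL39 and RpLP1). The other 17 had one in neither, and 0 of these had an optimal peak. The optimal list derives from these same replicates, so its match with the 29 and the 17 is largely set by construction. Summits of the 2 replicates lay at a median of 17 bp from each other (range 0 to 153 bp) and within 50 bp in 28 of 35 members. These distances were not measured over all protein-coding genes with a peak.

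The summits lay close to the start site. Measured from the gene's nearest TSS, the summit of the 35 members had a median position of -18 bp, where negative is upstream (quartiles -56 and -5.5 bp, range -195 to 28 bp). Over all protein-coding genes with a peak the median was -109 bp (quartiles -203 and -32 bp). Within 100 bp of a TSS lay 33 of 35 RpL summits (94.3%), against 602 of 1460 over all protein-coding genes (41.2%). RpS genes were alike in this, with a median of -20 bp and 17 of 18 within 100 bp, while mitochondrial ribosomal protein genes had a median of -173 bp and 2 of 13. Translation factor genes (eIF and eEF) had a median of -24.5 bp, near that of RpL genes, with 6 of 10 within 100 bp. The share upstream of the TSS was 82.9% in RpL genes and 83.0% over all protein-coding genes with a peak. Measuring from the representative TSS alone moved the RpL median to -41 bp, with 31 of 35 within 100 bp (88.6%), against -108 bp and 39.1% over all protein-coding genes. RpL23 had the summit farthest upstream, at -195 bp. At RpL23 the stronger peak was upstream, and a weaker pooled peak (75.8) had its summit 16 bp downstream of the TSS.

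**Figure D3:**
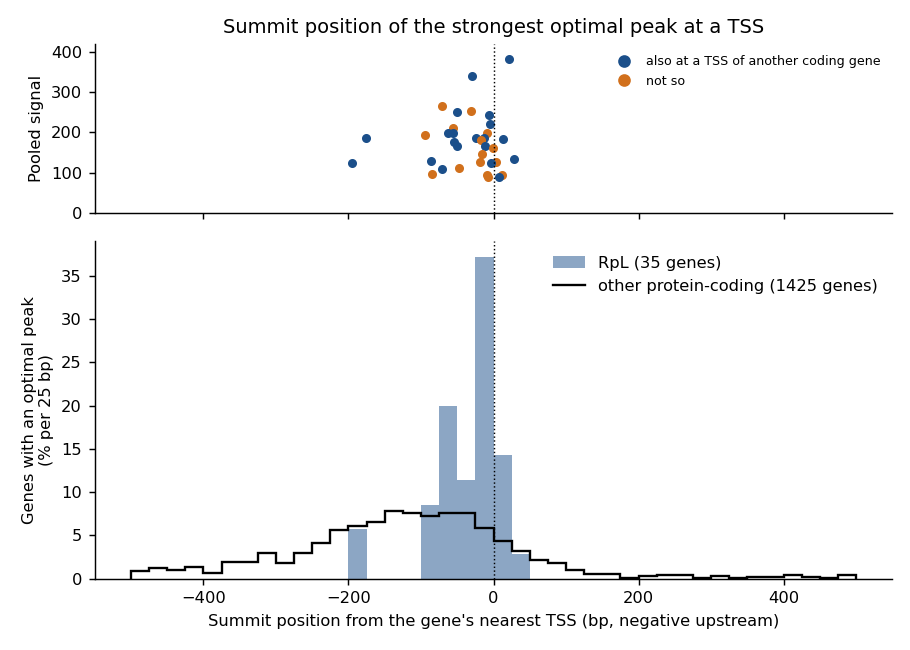
Summit position from the gene's nearest TSS (x axis, bp, negative upstream). The upper panel gives pooled signal for the 35 RpL genes, coloured by whether the peak is also at another protein-coding gene's TSS. The lower panel gives the percent of genes per 25 bp for RpL genes (filled) and 1425 other protein-coding genes with a peak (line). RpL summits gather just upstream of the TSS, with a median of -18 bp, and the wide distribution of the other genes lies farther upstream.

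By annotation, 25 of the 35 summits lay outside any annotated protein-coding gene, 9 in a 5′ UTR and 1 in an intron. The matching counts over all protein-coding genes with a peak were not made, so nothing particular to RpL genes is read from them. RpL26 was the only member with 2 optimal peaks. They had pooled signals of 126.9 and 117.9, with summits 18 bp and 46 bp upstream of its 2 TSSs, and both overlapped the same peak in each replicate list. The 13 members with only a pooled peak had a median summit position of 29 bp (range -55 to 266 bp), and 10 of the 13 lay downstream of the TSS, against 6 of the 35 with an optimal peak. Other genes with only a pooled peak were not counted in this way. The replicate summits of several of these weak peaks lay far apart, such as 206 bp downstream in replicate 1 and 194 bp upstream in replicate 2 at RpL36A, so their positions are less certain.

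Many RpL genes share their promoter region with a gene on the other strand, and at 500 bp a peak cannot be given to only 1 of them. The peak of 20 of 35 members (57.1%) was also within 500 bp of a TSS of another protein-coding gene, against 53.7% of all protein-coding genes with a peak. The summit was nearer to the RpL gene in 18 of these 20. It was nearer to the other gene at RpLP0-like, whose summit was 16 bp from a TSS of 14-3-3zeta. At RpL13 the summit lay 24 bp upstream of the RpL13 TSS and 60 bp upstream of that of Dref, which encodes the factor that binds the DRE motif. Other partners were eIF1 at RpL28, the spliceosome gene BCAS2 at RpL4, the SAGA subunit gene Sgf29 at RpL29, the tRNA methyltransferase gene Trmt61 at RpL34a, and Mybbp1A at RpL36. Pooled signal had a median of 185.3 in the 20 shared cases (range 89.9 to 381) and 146.9 in the 15 others (range 89.6 to 267), and the ranges overlap widely.

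The shares with a peak were also split by the arrangement of the promoter. A divergent neighbour was a protein-coding gene on the other strand with a TSS up to 500 bp upstream of the representative TSS. With one, 18 of 21 RpL genes had a peak (85.7%), against 19.6% of all protein-coding genes so arranged. Without one, 17 of 33 RpL genes had a peak (51.5%), against 7.31% of all protein-coding genes so arranged. A divergent neighbour was present in 51.4% of members with an optimal peak and in 15.8% of those without, namely RpLP1 (CG13690, 300 bp away), RpL24-like (CG5276, 156 bp) and RpL7-like (JhI-21, 306 bp). Over all protein-coding genes 25.8% had one, and of the 1460 protein-coding genes with an optimal peak 704 did. The share in members with an optimal peak is therefore close to that of other genes with a peak. The part of these neighbours in the peaks was not tested.

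**Figure D4:**
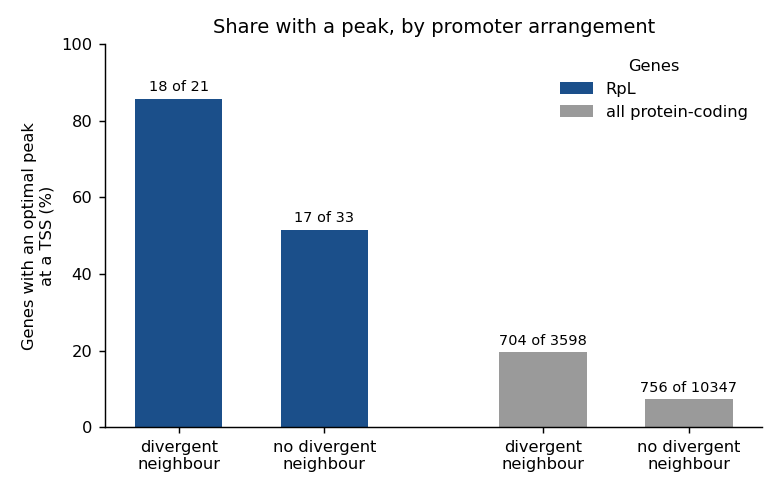
Share of genes with an optimal peak at a TSS (y axis, percent) for RpL genes and all protein-coding genes, each split by whether a divergent protein-coding neighbour starts within 500 bp upstream (x axis). Labels give counts. RpL shares were 85.7% with a neighbour and 51.5% without, against 19.6% and 7.31% over all protein-coding genes.

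TCT motifs were common in the members with and without a peak. At the representative TSS 35 of 54 RpL promoters held a TCT match (64.8%), against 165 of 13692 protein-coding promoters (1.21%), and 18 of 38 RpS promoters did (47.4%). The C of the match lay at a median of 5 bp downstream of the annotated TSS (range -2 to 9 bp). Of the RpL genes with an optimal peak 24 of 35 held it (68.6%, 50.7% to 83.1%), and of those without 11 of 19 (57.9%, 33.5% to 79.7%). Counting every annotated TSS the numbers were 30 of 35 and 14 of 19. More start sites give more places for a match, and this count was not made over all protein-coding genes. The 10 members with no match at any TSS were RpL10Aa, RpL12, RpL15, RpL17, RpL22-like, RpL24-like, RpL26, RpL34a, RpL41 and RpLP0-like, and 5 of them had an optimal peak. Pooled signal of members with an optimal peak had a median of 171.3 with the match at the representative TSS (n = 24) and 180.3 without it (n = 11). Taken over promoters, 24 of 35 RpL promoters with a TCT match had a peak, against 47 of all 165 TCT promoters (28.5%), RpL and RpS included. Of the 112 TCT promoters of genes that are neither RpL nor RpS, 14 had one (12.5%). This last share leaves out the RpS genes, the group most like the members.

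Longer windows show how other promoter motifs sit beside the TCT match. Each runs from 150 bases before to 20 bases after the representative TSS, 5′ to 3′ on the gene's strand, in the RefSeq sequence of Release 6. At RpL28 (chr3L:3222938-3223108, minus strand) capitals mark a DRE, TATCGATA, and the TCT match, and the DRE starts at -94 bp. At RpL27 (chr3R:25685031-25685201, minus strand) they mark Ohler 1 on the other strand, a DRE, Ohler 7 and the TCT match, with the DRE at -40 bp. At RpL37-1 (chrX:15139347-15139517, minus strand) they mark a DRE at -57 bp and the TCT match. RpL40 (chr2L:4227549-4227719, plus strand), with no pooled peak, held the TCT match alone.
RpL28: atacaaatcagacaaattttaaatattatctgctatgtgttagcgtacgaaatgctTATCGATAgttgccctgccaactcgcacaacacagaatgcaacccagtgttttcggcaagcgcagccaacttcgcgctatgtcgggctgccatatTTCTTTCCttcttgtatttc
RpL27: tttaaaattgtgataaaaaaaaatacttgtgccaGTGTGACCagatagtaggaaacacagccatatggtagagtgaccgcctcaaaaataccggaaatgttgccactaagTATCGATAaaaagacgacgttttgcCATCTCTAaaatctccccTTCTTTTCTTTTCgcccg
RpL37-1: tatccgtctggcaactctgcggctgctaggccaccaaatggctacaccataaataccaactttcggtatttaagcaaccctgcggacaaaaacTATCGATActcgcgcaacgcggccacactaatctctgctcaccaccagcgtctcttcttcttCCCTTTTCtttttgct
RpL40: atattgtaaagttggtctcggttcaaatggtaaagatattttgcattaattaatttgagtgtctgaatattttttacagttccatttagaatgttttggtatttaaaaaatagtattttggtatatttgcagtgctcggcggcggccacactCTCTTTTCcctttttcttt

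The DRE, the site of the factor Dref, was the next most frequent motif. Searched on both strands from 150 bp before to 50 bp after the representative TSS, TATCGATA was found in 13 of 54 RpL promoters (24.1%, 13.5% to 37.6%), against 8.09% of all protein-coding promoters, and in 34.2% of RpS promoters. It was in 9 of 35 members with an optimal peak and 4 of 19 without. Ohler 1 (GGTCACAC) was in 14.8% of RpL promoters, against 7.10% of all, and Ohler 7 (CATCNCTA) in 9.26%, against 5.41%. The RpL27 window above was the only one of a member with an optimal peak that held DRE, Ohler 1 and Ohler 7 together. The E-box CAGCTG was in 5.56% of RpL promoters, against 14.2% of all, and GAGAGAG in 0 of 54, with an exact upper limit of 6.60%, against 4.70% of all. The exact 95% intervals of the RpL shares of Ohler 1 (6.62% to 27.1%), Ohler 7 (3.08% to 20.3%), the E-box (1.16% to 15.4%) and GAGAGAG each include the value for all promoters.

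Few members held TATAAA or an Initiator. TATAAA with its first base between -40 and -20 bp was found in 1 of 54 RpL promoters, at RpL39, a share of 1.85% (0.0469% to 9.89%), against 7.95% of all protein-coding promoters. The interval includes the value for all promoters, and among protein-coding promoters with an optimal peak the share was 4.05%. An Initiator (TCAGT or TCATT, first base between -12 and 8 bp) was found in 2 of 54, at RpL23A and RpL15, a share of 3.70%, against 18.7% of all. Only these letters in these windows were searched, so the counts say nothing of which factors bind there. Among the 9 members with an optimal peak and a DRE, the summit lay 3 bp from the start of the DRE at RpL19 and 57 bp from it at RpL39. These are examples and do not give the range.

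**Figure D5:**
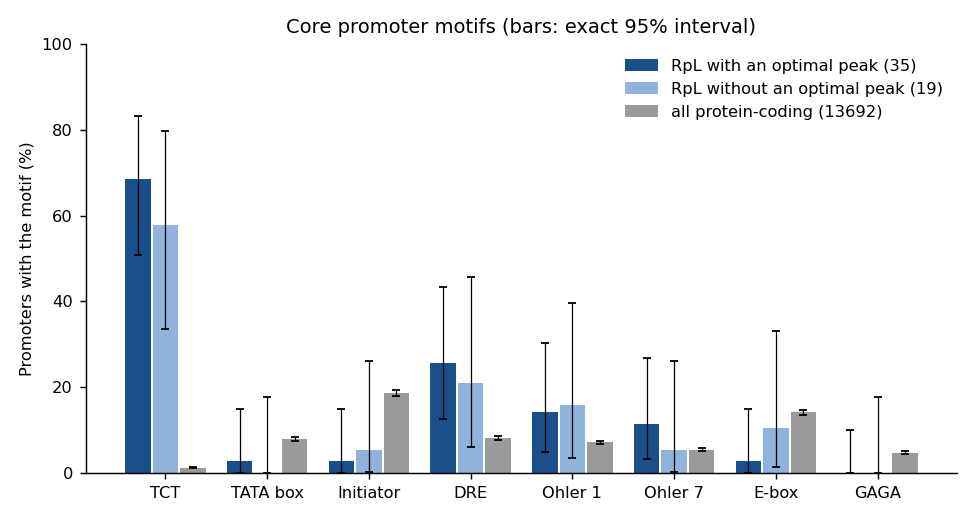
Share of promoters with each core promoter motif (y axis, percent) for 35 RpL genes with an optimal peak, 19 RpL genes without, and 13692 protein-coding promoters (x axis, motifs). Error bars are exact 95% binomial intervals. TCT stood at 68.6% and 57.9% in the RpL groups, against 1.21% of all promoters.

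Members with a peak were found on every chromosome that holds any. There were 7 of 13 on 2L, 9 of 14 on 2R, 7 of 10 on 3L, 8 of 11 on 3R and 4 of 6 on X, with no member on chromosome 4, against shares between 8.65% and 12.04% of protein-coding genes on these 5 chromosomes. GC content from 250 bp before to 50 bp after the representative TSS had a median of 38.5% in the 35 members with an optimal peak (range 31.6% to 49.5%) and 32.9% in the 19 without (range 25.9% to 43.2%), against 38.2% over all protein-coding promoters. The ranges overlap, and the part of base composition in the peaks was not tested. Many ribosomal protein genes host small nucleolar RNA genes in their introns. Here such a gene lay within the member's span on the same strand in 11 of 35 members with an optimal peak and 5 of 19 without. Whether it lay in an intron was not checked. The counts have no share over all protein-coding genes beside them, so nothing is read from them.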

How the data were processed

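Peak lists on dm6 were used as deposited by the authors: an optimal list (2174 peaks), and pooled, replicate 1 and replicate 2 lists (30000 each) described in the deposited notes as peaks and background given to the irreproducible discovery rate (IDR) step. Peaks were called against a control alignment, per the deposited notes. The sources used here name no caller, aligner or IDR threshold. Per peak, the signal (scale not given) and the summit offset were taken as the authors deposited them. The -log10 q value deposited by the authors was read but ranks nothing here, since it ties at its maximum. Lists on dm3 were not used. Sequencing depth is unknown, list lengths do not show it, and p-values were not computed, because there is 1 group.

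Genes and TSSs came from Ensembl release 115 and sequences from the RefSeq Release 6 genome, the same build. A gene's peak was its strongest with a summit within 500 bp of a TSS. The representative TSS had the most transcripts, then lay most upstream. A replicate's value was that of its strongest peak overlapping by at least 1 base. The tissue could not be checked against marker transcripts, since peaks measure binding. Full values were given for the 10 strongest members, the 5 weakest with an optimal peak, paralog pairs, stalk proteins, members with more than 1 optimal peak, and members with replicates over 2-fold apart; members with no optimal peak are given by name with their pooled signal. The members and lists were chosen with earlier results of these data known. 1 member counts in all totals but is not reported by itself here. The assignment and motif searches were tested on simulated data. Python 3.11.15, numpy 2.4.6, scipy 1.17.1 and matplotlib 3.10.9 were used.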

Additional observations from a re-analysis of the deposited data

How the results depend on the processing

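The count of 35 RpL genes with a peak (10.5% of all protein-coding genes) ran from 28 with the stronger part of the optimal list (5.72% of all protein-coding genes) to 48 with the whole pooled list (51.3%). It was 35 at 200 bp (7.58%), 1000 bp (12.5%) and from the representative TSS alone (9.07%), and 33 without replicate 1 (10.7%) or replicate 2 (10.2%). The median signal moved from 176.6 to 128.5 with the whole pooled list, which adds weaker peaks. Leaving out a replicate gave 70.2 and 110.1, on the scale of the replicate that was kept. The median summit position moved from -18 bp to -11 bp with the whole pooled list and to -41 bp from the representative TSS alone, and lay between -29 and -20 bp with a replicate left out. The count of 20 peaks also at another gene's TSS is set by the distance: it was 9 at 200 bp, 7 where the peak interval had to overlap both TSSs, and 0 where each peak went to its nearest TSS only, which holds by construction. The 35 TCT promoters became 22 with a window of 5 bp on each side and 38 with the window 2 times as wide. The share of all promoters was not counted with these windows. Counts and signals cannot change sign, so only the median summit position could have reversed. It stayed upstream of the TSS in each alternative. No paired analysis was possible because the design has a single group. Depth was not in the files, so an absent peak is not detected in these lists, not shown to be unbound.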
